A study of Homo sapiens with 11 samples.

Results

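Nearly all of the 85 genes described here encode proteins of the cytosolic ribosome. All 85 were followed in AsPC-1 and PANC-1, human cell lines from pancreatic cancers, with and without small interfering RNA (siRNA) against MYEOV. They were taken from 58735 listed gene identifiers by symbol. A member is annotated as protein-coding in GENCODE release 29 and has a symbol that begins with RPL or RPS and a digit, or is RPLP0, RPLP1, RPLP2, RPSA or FAU. Kinases of the RPS6K family, RPS4Y genes and hyphenated read-through symbols were left out, as were genes under 1 CPM, a count scaled to the size of its library, in every library. This last condition removed RPL3L and RPL10L out of 87 candidates. RPL3L peaked at 0.578 CPM and RPL10L had no count, while the faintest member, RPS10, ran from 1.19 to 2.87 CPM before scaling. By symbol, 51 members belong to the large subunit and 34 to the small subunit. The symbol rule also takes RPS19BP1, a nucleolar partner of RPS19 that is not a ribosomal protein, and it does not take RACK1.

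The groups were AsPC-1 MYEOV siRNA (n = 3), AsPC-1 control (n = 2), PANC-1 MYEOV siRNA (n = 3) and PANC-1 control (n = 3). RNA was prepared 48 hours after siRNA transfection, selected for poly(A) and sequenced as paired reads of 150 bases. AsPC-1 was grown in RPMI and PANC-1 in DMEM, so line and medium cannot be told apart. The titles call the controls wild type and their descriptions speak of no treatment, while a negative-control siRNA appears in the protocol. An effect of transfection and an effect of lower MYEOV cannot be told apart here. The protocol names a pair of MYEOV siRNAs and does not say which library received which. Nothing states that libraries of a group were separate cultures, so the p-values reflect variation among these libraries that may be only technical.

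Ribosomal proteins are assembled with ribosomal RNA in the nucleolus and enter subunits in fixed proportions, and surplus unassembled protein is degraded. In vertebrates their mRNAs usually begin with a cytosine followed by a run of pyrimidines, the 5′ terminal oligopyrimidine or TOP motif, through which the mTORC1 pathway and the RNA-binding protein LARP1 control their translation and stability. Cancer cells need many ribosomes, and several ribosomal proteins have further roles, among them RPL5 and RPL11, which bind the p53 regulator MDM2 when subunit assembly fails.

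The start-site sequences below belong to members with some of the larger differences in AsPC-1 or between the lines. Second copies of members are included, as is RPL39, which has the longest run by the count used here. All are shown because the TOP motif lies at the start of the mRNA. Each runs from 10 bases before to 14 bases from the annotated RefSeq start (GRCh38.p14), 5′ to 3′. Capitals mark a run of at least 5 pyrimidines (C or T), counted from a C within 5 bases of the annotated start. Pyrimidines before that window, and runs that begin after it, are not counted.
RPS29 (chr14:49598697-49598720, minus strand): agcgcgcagctggcagcggtggtt
RPS27 (chr1:153990752-153990775, plus strand): cgctttcgCTCCTTTCCggcggtg
RPLP0 (chr12:120201098-120201121, minus strand): ggcgcgaggCCCTTCTCTCgccag
RPL22 (chr1:6199582-6199605, minus strand): cgctcaCCTCCCTTTCTaactccg
RPL13A (chr19:49487598-49487621, plus strand): aaacctCCTCCTTTTCCaagcggc
RPS16 (chr19:39435936-39435959, minus strand): ccctagCTTTCCTTTTCCggttgc
RPS26 (chr12:56041908-56041931, plus strand): acataacctcgattttcttccgcc
RPL9 (chr4:39458909-39458932, minus strand): taatgacgacagacgttctttctt
RPL7A (chr9:133348208-133348231, plus strand): attccCTTTCCTTTCTCTCTCCTC
RPL39 (chrX:119791617-119791640, minus strand): ccgccagCTTCCCTCCTCTTCCTT
RPL22L1 (chr3:170870182-170870205, minus strand): ccgtagCTTCCTCTCTgctctcgc
RPS27L (chr15:63157464-63157487, minus strand): gatgccgagcgcagatcgcttgca
RPL7L1 (chr6:42879606-42879629, plus strand): gtgcggcgccgtagctaggagcgg
In RPL39 and RPL7A the run goes on past the printed bases, to 22 and 21 letters by this count. In RPL7A and RPL13A unbroken pyrimidines also precede the capitals, so their full stretches are longer than counted. RPS29, RPS26, RPL9, RPS27L and RPL7L1 hold no run counted from a C within 5 bases of the annotated start. In RPL9 and RPS26 a run of at least 5 pyrimidines from a C begins just past that limit. Whether these members count as having the run thus depends on the limit and on the annotated start.

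A start was matched by symbol for 68 members, and 53 of these (77.9%) had the run, against 21.1% of all 27305 RefSeq promoters. The median run was 11 letters. In the window from 250 bases before to 50 bases after the start, CCGGAAG, the core of an ETS-family site, was found on either strand in 33.8% of matched members and in 10.7% of all promoters. CTTTCC, which can overlap the pyrimidine run, was found in 45.6% and 26.3%. ATGGCGGC, the core of a YY1 site, was found in 7.35% and 3.21%, and TATAAA in 8.82% and 12%. These are matches of letters only, and the motifs were chosen with results of these data known.

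The libraries held 12113093 to 15066456 counts on genes. MYEOV was at 42.9, 50.7 and 48.1 CPM in AsPC-1 siRNA libraries, against 131 and 130 CPM in AsPC-1 controls, and at 37.6, 35.8 and 39.7 CPM in PANC-1 siRNA libraries, against 75, 68.5 and 64.3 CPM in PANC-1 controls. It was lower in every siRNA library of both lines, at 35.9% of control in AsPC-1 and 54.4% in PANC-1. All 5 epithelial markers (EPCAM, CDH1, KRT8, KRT18, KRT19) had counts in both lines, summing to 18050 to 18940 CPM in AsPC-1 and 1928 to 2528 CPM in PANC-1. The leukocyte markers summed to 30.5 to 32.9 CPM in AsPC-1, nearly all of it from LYZ, and to 0.857 to 1.58 CPM in PANC-1, with CD3E at 0 in every library. The endothelial markers summed to under 1 CPM in every library. The fibroblast list summed to 106 to 109 CPM in AsPC-1 siRNA libraries, against 296 to 310 CPM in AsPC-1 controls, and to 47.1 to 48.8 CPM in PANC-1 siRNA libraries, against 33.7 to 40.6 CPM in PANC-1 controls. PDGFRA was at 0 throughout AsPC-1, where LUM made up most of the sum, and the part of these markers in the results below was not tested. PANC-1 control replicate 2 differed most from its group, with a chi-square per degree of freedom of 5.47 and 4.47 against the other controls, where every other pair of replicates lay between 1.62 and 3.42.

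The 85 members together took 3.63%, 3.67% and 3.71% of all counts in the AsPC-1 siRNA libraries, against 3.37% and 3.42% in the AsPC-1 controls. Every siRNA library thus lay above both controls. In PANC-1 the members took 3.45%, 3.60% and 3.54% in siRNA libraries, against 3.70%, 3.41% and 3.59% in controls, and these overlapped. The large subunit accounted for 2.05% to 2.28% of counts in AsPC-1 and 1.81% to 1.95% in PANC-1. The small subunit accounted for 1.32% to 1.44% in AsPC-1 and 1.59% to 1.75% in PANC-1, and without RPS16 the member total was higher in AsPC-1 controls (3.34% and 3.39%) than in PANC-1 controls (2.96% to 3.19%). As these are bulk RNA samples, fewer cells making an mRNA and less of it per cell cannot be told apart.

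**Figure D1:**
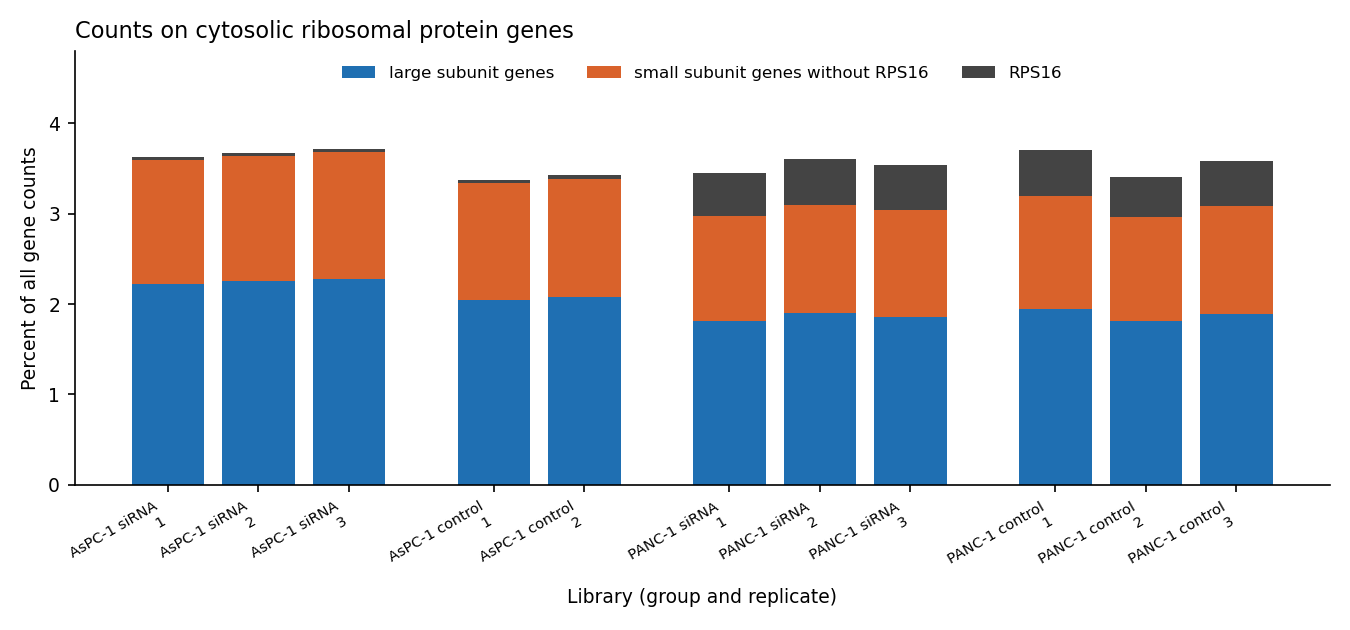
Percent of all gene counts on cytosolic ribosomal protein genes in each of the 11 libraries, split into large subunit genes, small subunit genes without RPS16, and RPS16. The 3 AsPC-1 siRNA bars (3.63% to 3.71%) exceed both AsPC-1 control bars, the PANC-1 groups overlap, and RPS16 is a visible slice in PANC-1 only.

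Levels between members are compared as CPM per kilobase of merged exon length unless another length is named. RPS2, a core protein of the small subunit near the mRNA entry, was highest in AsPC-1 controls at 1246 ± 8.06 CPM per kilobase (SD, n = 2), followed by RPL8 at 621 ± 23.5, RPL41 at 591 ± 5.95, RPL7A at 526 ± 9.19 and RPLP0 at 496 ± 11.8. RPL8 and RPL41 differed by little more than the SD of RPL8, while RPS2 stood clear of both. In PANC-1 controls RPS16 led at 1716 ± 123, ahead of RPS2 at 700 ± 36.7, RPL41 at 452 ± 9.81 and RPLP0 at 380 ± 14.4 (SD, n = 3). Over the 85 members the median was 117 in AsPC-1 siRNA libraries, 109 in AsPC-1 controls, 89.6 in PANC-1 siRNA libraries and 93.3 in PANC-1 controls, in the same unit. The lowest levels were those of RPS10 (0.841 ± 0.190 in AsPC-1 controls and 1.02 ± 0.141 in PANC-1 controls), RPS27L, RPL36A, RPL22L1 and RPS29, apart from RPL39L, which had no count in AsPC-1. A low value of this kind depends on annotation: the merged exons of RPS29 span 9845 bases, and 39.4% of the exon bases of RPS10 are shared with the read-through gene RPS10-NUDT3. Processed copies matter too: 1146 pseudogenes carry a member's symbol, 464 of them had counts, and pseudogene counts came to 218% of those of RPS10, 34.1% of RPL9, 26.1% of RPL26 and 19.7% of RPS2. Values for these members are uncertain to that extent. The order of the highest members also depends on the length used. Per kilobase of the longest coding transcript, RPS2 (3028 CPM) still led in AsPC-1 controls. RPLP0 (1477) then lay above RPL8 (1288), RPL7A (1116) and RPL41 (920). In PANC-1 controls, by that length, RPS16 was at 6948, RPS2 at 1701, RPLP0 at 1130 and RPL41 at 704.

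Relative to other genes, the AsPC-1 siRNA libraries had slightly more mRNA for most ribosomal proteins than the AsPC-1 controls. Of 84 members tested, 62 rose and 1 fell at an adjusted p under 0.05 (edgeR quasi-likelihood test, Benjamini-Hochberg adjustment over all 14304 genes tested), where 16.6% of all genes tested rose and 16.3% fell. The changes were small: the median over members was 0.13 on the log2 scale, against 0.00 over all genes tested, and the largest was 0.43. Among genes with a mean of at least 100 CPM, 36.3% rose and 21.7% fell, with a median of 0.04, and among genes with a coding transcript of at most 1500 bases, 19.5% rose and 9.89% fell. These narrower backgrounds were chosen after the values were seen. In 68 members every siRNA library lay above both controls (28.9% of all genes tested), in 2 every one lay below (25.4%), and 14 overlapped. The large subunit contributed 40 rises and 1 fall among 50 tested members, with a median of 0.14, and the small subunit 22 rises among 34, with a median of 0.13. Cyclic loess scaling with limma voom gave 31 rises, 2 falls and a median of 0.08, and leaving out AsPC-1 control replicate 1 gave 38 rises. Of the 62 rises, 31 were called in every fit that left out 1 library, and 25 of those also with DESeq2 and with cyclic loess.

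The stalk proteins of the large subunit, which recruit elongation factors to the ribosome, all rose in AsPC-1. RPLP0 was at 2384, 2410 and 2444 CPM in siRNA libraries, against 2018 and 1951 CPM in controls. Its groups did not overlap, and its log2 fold change was 0.27 ± 0.03 (SE, edgeR adjusted p = 5.38e-08), or 0.18 with cyclic loess. RPLP1 was at 457, 462 and 448 CPM in siRNA libraries, against 384 and 415 CPM in controls, a change of 0.18 ± 0.04. RPLP2 was at 442, 423 and 424 CPM in siRNA libraries, against 376 and 397 CPM in controls, a change of 0.14 ± 0.04. No siRNA library of either gene fell within its control range, although without the first AsPC-1 control library neither was called, and RPLP2 was not called with cyclic loess.

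The largest fold change was that of RPS29, a small zinc-binding protein of the small subunit head, with 35.4, 37.4 and 34.9 CPM in AsPC-1 siRNA libraries, against 26.2 and 26.5 CPM in controls. Its log2 fold change was 0.43 ± 0.07 (edgeR adjusted p = 5.73e-05), though at a low level. RPS27, another zinc-binding protein of the small subunit, was at 262, 258 and 276 CPM in siRNA libraries, against 211 and 217 CPM in controls, a change of 0.30 ± 0.04. RPS15A, which lies in the body of the small subunit, was at 128, 119 and 119 CPM in siRNA libraries, against 101 and 98.0 CPM in controls, a change of 0.28 ± 0.05. All 3 separated the groups without overlap and were among the 25 rises called in every fit named above. RPL22, a large subunit protein lost in some T-cell leukaemias, was at 126, 125 and 125 CPM in siRNA libraries, against 106 and 103 CPM in controls, a change of 0.24 ± 0.04. RPL13A, which can leave the ribosome to silence translation after interferon-gamma, was at 973, 956 and 943 CPM in siRNA libraries, against 798 and 812 CPM in controls, a change of 0.23 ± 0.03. The spread within each group was small against the gap for both genes.

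Members with roles outside translation mostly followed. RPL5, which carries 5S ribosomal RNA into the subunit and binds MDM2, rose by 0.20 ± 0.03 on the log2 scale, with 584, 550 and 582 CPM in AsPC-1 siRNA libraries, against 502 and 484 CPM in controls. Its partner RPL11 was at 520, 527 and 539 CPM in siRNA libraries, against 481 and 475 CPM in controls (0.13 ± 0.03). The RPL11 call was lost with cyclic loess and in 1 fit over all groups. RPL23, the third MDM2 binder of the list, was at 356, 380 and 400 CPM in siRNA libraries, against 379 and 340 CPM in controls, with overlapping groups and no call. The ubiquitin fusion gene RPS27A rose by 0.22 ± 0.04, with 411, 389 and 404 CPM in siRNA libraries, against 333 and 348 CPM in controls. FAU, which is fused to a ubiquitin-like domain, rose by 0.11 ± 0.04, a call lost with cyclic loess, DESeq2, 1 fit over all groups or the replicate block, without either control library, and without siRNA replicate 1 or 3. RPSA, also known as a laminin receptor, rose by 0.20 ± 0.03, with 854, 842 and 890 CPM in siRNA libraries, against 756 and 725 CPM in controls. Of the genes mutated in Diamond-Blackfan anaemia or deleted in the 5q syndrome, RPS19 (0.12 ± 0.04), RPS26 (0.13 ± 0.04), RPS14 (0.13 ± 0.03) and RPL35A (0.13 ± 0.04) rose. The calls for RPS19 and RPS14 were lost without control replicate 1, those for RPS26 and RPL35A without control replicate 2, and all 4 with cyclic loess. RPS19 was also not called without siRNA replicate 2, and neither RPS19 nor RPL35A was called in 1 fit over all groups.

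A minority of members did not pass the test in AsPC-1. RPS6, the substrate of the S6 kinases, was at 387, 405 and 416 CPM in siRNA libraries, against 404 and 404 CPM in controls. The X-linked RPS4X was at 812, 821 and 857 CPM in siRNA libraries, against 818 and 803 CPM in controls, and RPL12, a base protein of the stalk, was at 534, 540 and 539 CPM, against 535 and 541 CPM. The groups of all 3 overlapped. RPL7L1, a relative of RPL7 whose yeast counterpart acts in subunit assembly, was the 1 member that fell, with 127, 138 and 133 CPM in siRNA libraries, against 160 and 154 CPM in controls (log2 fold change −0.25 ± 0.04, edgeR adjusted p = 5.63e-05). RPS10 (−0.19 ± 0.30), at 1.32 to 1.97 CPM in siRNA libraries, against 1.67 and 2.30 CPM in controls, was not called, and its sign changes without AsPC-1 control replicate 2 (0.05).

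**Figure D2:**
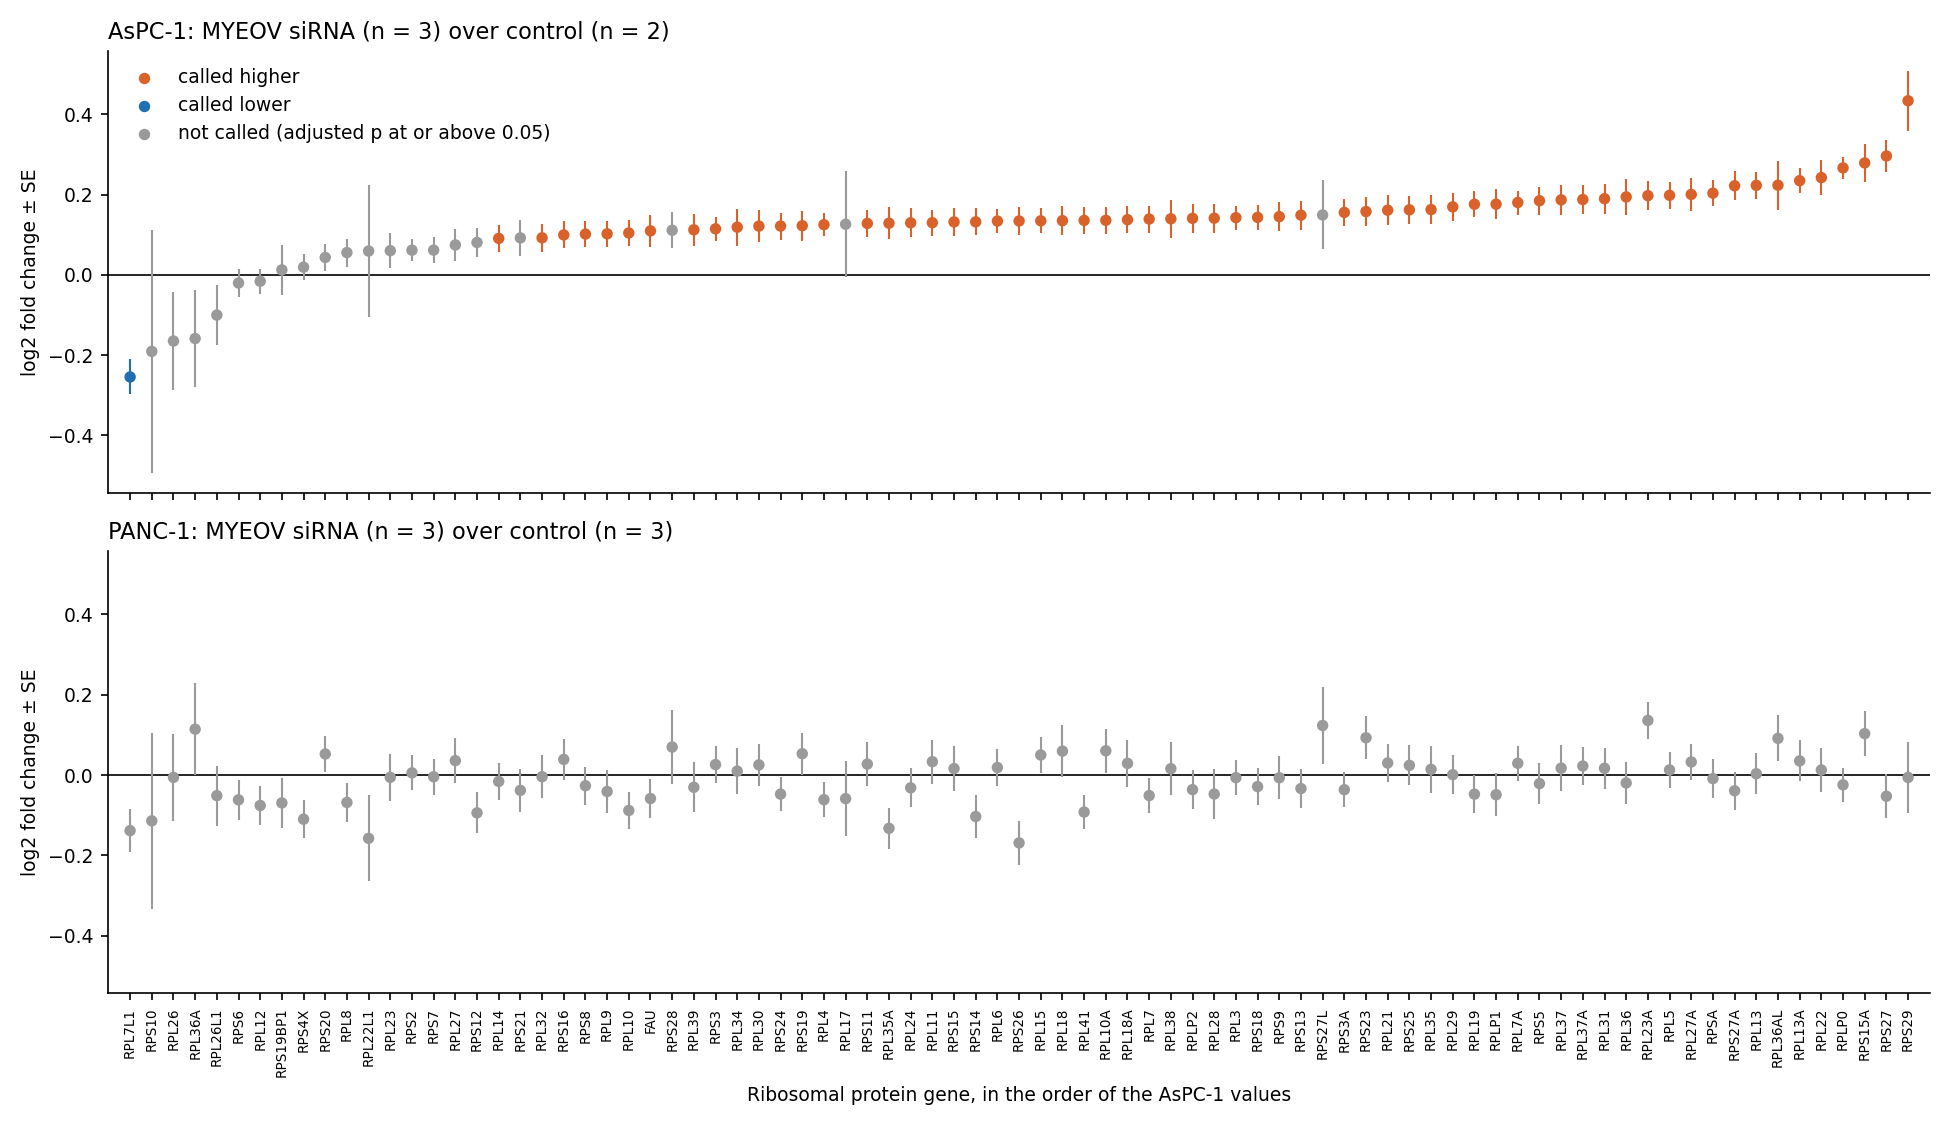
Log2 fold change with its standard error (edgeR) of each ribosomal protein gene, siRNA over control, in AsPC-1 (upper panel) and PANC-1 (lower panel, the same genes in the same order); coloured points passed an adjusted p of 0.05. Most AsPC-1 points sit between 0.1 and 0.3 with RPS29 at 0.43, while PANC-1 points scatter around 0 and none is coloured.

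In PANC-1 no member passed the test with MYEOV siRNA. edgeR called 0 of 85 tested, with 5 at an unadjusted p under 0.05, and DESeq2 called 0, with 4 at an unadjusted p under 0.05, where edgeR called 9.08% of all 14929 genes tested, 4.16% higher and 4.92% lower. The shares were 9.98% higher and 7.17% lower among genes of at least 100 CPM, and 1.78% and 3.07% among those with short coding transcripts. Cyclic loess scaling gave 3 falls. The median was −0.01, and values ran from −0.17 ± 0.05 for RPS26 to 0.14 ± 0.05 for RPL23A, a protein at the mouth of the peptide exit tunnel. In 3 members every siRNA library lay above every control (13.7% of all genes tested), in 6 every one lay below (14.7%), and 76 overlapped. RPLP0 was at 1486, 1544 and 1451 CPM in PANC-1 siRNA libraries, against 1582, 1470 and 1503 CPM in controls. RPS29 was at 43.7, 39.5 and 42.3 CPM in siRNA libraries, against 47.5, 36.3 and 42.1 CPM in controls. RPS27 was at 206, 207 and 212 CPM in siRNA libraries, against 232, 214 and 202 CPM in controls. For these 3 genes, all called in AsPC-1, the PANC-1 groups overlapped. RPS26, a platform protein of the small subunit that contacts mRNA upstream of the start codon, was at 157, 166 and 161 CPM in siRNA libraries, against 193, 174 and 176 CPM in controls. It separated the groups without a call (edgeR adjusted p = 0.0681), and passed the test without PANC-1 control replicate 2 (−0.20), with cyclic loess and in 1 fit over all groups. RPL23A was at 192, 197 and 194 CPM in siRNA libraries, against 177, 174 and 179 CPM in controls (edgeR adjusted p = 0.0853). Libraries varied more in PANC-1, where the fit gave a biological coefficient of variation of 6.08%, against 2.77% for the AsPC-1 fit, and the part of this in the counts of calls was not tested.

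The difference between the responses was tested directly, in 1 edgeR fit over all 11 libraries. Of 85 members 13 had a higher log2 fold change in AsPC-1 than in PANC-1 at an adjusted p under 0.05 and 0 a lower one, where 4.36% of all genes tested were called, 2.28% higher and 2.07% lower (381 and 346 genes, or 282 and 401 with cyclic loess). Among genes of at least 100 CPM the shares were 6.57% higher and 4.86% lower, and among those with short coding transcripts 2.83% and 1.16%. At an unadjusted p under 0.05, 45 members were higher and 0 lower, and DESeq2 called 10 higher and 0 lower. The median over members was 0.16, against 0.02 over all genes tested. RPLP0 differed by 0.31 ± 0.05 (edgeR adjusted p = 0.00188), and was the 1 member called in every fit that left out a library, with the replicate number as a block, with DESeq2 and with cyclic loess. RPS29 differed by 0.45 ± 0.13, RPS27 by 0.36 ± 0.07 and RPS26 by 0.32 ± 0.07. Among the other 9, from RPL4 at 0.20 to RPL35A at 0.28, the ubiquitin fusion gene RPS27A, RPSA and the large subunit proteins RPL13, RPL19 and RPL41 are found. The count fell to 1 with the replicate block. It was 2 without the first AsPC-1 control library, 3 without the second, from 4 to 7 without any 1 siRNA library and 19 without PANC-1 control replicate 2.

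Members with and without the TOP run had similar medians in AsPC-1, a difference that was not tested. The 53 members with the run had a median log2 fold change of 0.14 and 43 rose, while the 15 matched members without it had a median of 0.13 and 9 rose. These 15 include RPL9 and RPS26, in which a run begins just past the limit, so the split depends on the annotated start. Among other tested genes, 20.1% of 2189 with the run rose, with a median of 0.02, and 17.2% of 7679 without it rose, with a median of 0.00. In PANC-1 the medians were −0.01 with the run and −0.04 without it.

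Other genes of the translation machinery were read from lists, against 16.6% of all genes tested higher and 16.3% lower in AsPC-1, and 4.16% and 4.92% in PANC-1. Of 20 tested genes for elongation factors and other known TOP mRNAs, 15 rose and 2 fell in AsPC-1, with a median of 0.14. TPT1, an abundant TOP mRNA, rose by 0.27 ± 0.04, and EIF4B, a helper of the initiation helicase, by 0.32 ± 0.03, while HNRNPA1, a splicing factor, fell by 0.78 on the log2 scale. In PANC-1, 1 of these 20 was called, HNRNPA1, which fell by 0.64. Of 77 mitochondrial ribosomal protein genes, which serve the separate ribosome of that organelle, 9 (11.7%) rose and 7 (9.09%) fell in AsPC-1 (median 0.03) and 4 fell in PANC-1 (median −0.04). Of 25 chaperones and assembly factors of the cytosolic subunits, 7 (28%) rose and 8 (32%) fell in AsPC-1, and 3 (12%) fell in PANC-1. LSG1, a GTPase that releases the export factor NMD3 from the large subunit, fell by 0.39 in AsPC-1 and by 0.33 in PANC-1. RIOK1, a kinase of late small subunit maturation, fell by 0.29 in AsPC-1 and by 0.56 in PANC-1.

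Between the control groups of AsPC-1 and PANC-1 the members differed much more. In AsPC-1 controls set against PANC-1 controls, 52 of 85 members were higher and 19 lower (edgeR, adjusted p under 0.05), where 36.1% of 16182 genes tested were higher and 40.3% lower. Among genes of at least 100 CPM 46.2% were higher and 37.8% lower, and among those with short coding transcripts 35.3% and 40.7%. The median over members was 0.29, against −0.06 over all genes tested, or 0.20 with upper-quartile factors and 0.17 with cyclic loess. Every AsPC-1 control lay above every PANC-1 control in 53 members (38.7% of all genes tested) and below in 21 (45%). The large subunit had 33 higher and 13 lower of 51, and the small subunit 19 higher and 6 lower of 34. All but 6 members lay within 2-fold. The ranking of levels per kilobase was similar in the 2 control groups, with a Spearman rho of 0.941 over the 85 members, given as a description because all members come from the same libraries.

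RPS16, whose tail reaches the decoding site of the small subunit, differed far more than any other member with counts in both lines. It was at 355 and 362 CPM in AsPC-1 controls, against 4667, 4098 and 4637 CPM in PANC-1 controls, a log2 difference of −3.62 ± 0.07 (edgeR adjusted p = 5.80e-16). In PANC-1 controls it alone took 0.445% to 0.506% of all counts, against 0.0324% and 0.0337% in AsPC-1 controls. No AsPC-1 library came near the PANC-1 range, while the next lowest member with counts in both, RPL38, differed by −0.77. In PANC-1 siRNA libraries RPS16 was at 4408, 4703 and 4664 CPM, overlapping the PANC-1 controls. In AsPC-1 siRNA libraries it was at 386, 387 and 391 CPM, a called rise of 0.10 ± 0.03. This call was lost with cyclic loess, in 1 fit over all groups, without AsPC-1 control replicate 1 and without siRNA replicate 3.

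The genes beside RPS16 on the long arm of chromosome 19 (RPS16 at chr19:39433207-39435948 in the GRCh38 annotation, minus strand) shared this difference, a look taken after the RPS16 value was seen. Of the 16 nearest tested genes, 8 on each side with at least 3 counts in each control group, 15 were called over 2-fold lower in AsPC-1 controls, with a median of −3.60. PAF1, a subunit of a transcription elongation complex, was at 55.3 CPM in AsPC-1 controls, against 1077 CPM in PANC-1 controls (−4.26 ± 0.07). SUPT5H, an elongation factor next to RPS16, was at 140 CPM in AsPC-1 controls, against 1376 CPM in PANC-1 controls (−3.27 ± 0.06). The nucleolar methyltransferase gene FBL was at 147 CPM in AsPC-1 controls, against 1802 CPM in PANC-1 controls (−3.59). The 1 exception was the mucin-like FCGBP, at 91.4 CPM in AsPC-1 controls, against 6.87 CPM in PANC-1 controls. Within 1 megabase on each side, 37 of 45 such genes were lower in AsPC-1 and 4 higher, with a median of −2.56. No other member had a neighbour median below −1.57. RPS19, on the same chromosome arm, was 0.21 ± 0.06 higher in AsPC-1 controls, a call lost with upper-quartile factors, with cyclic loess and without AsPC-1 control replicate 2.

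**Figure D3:**
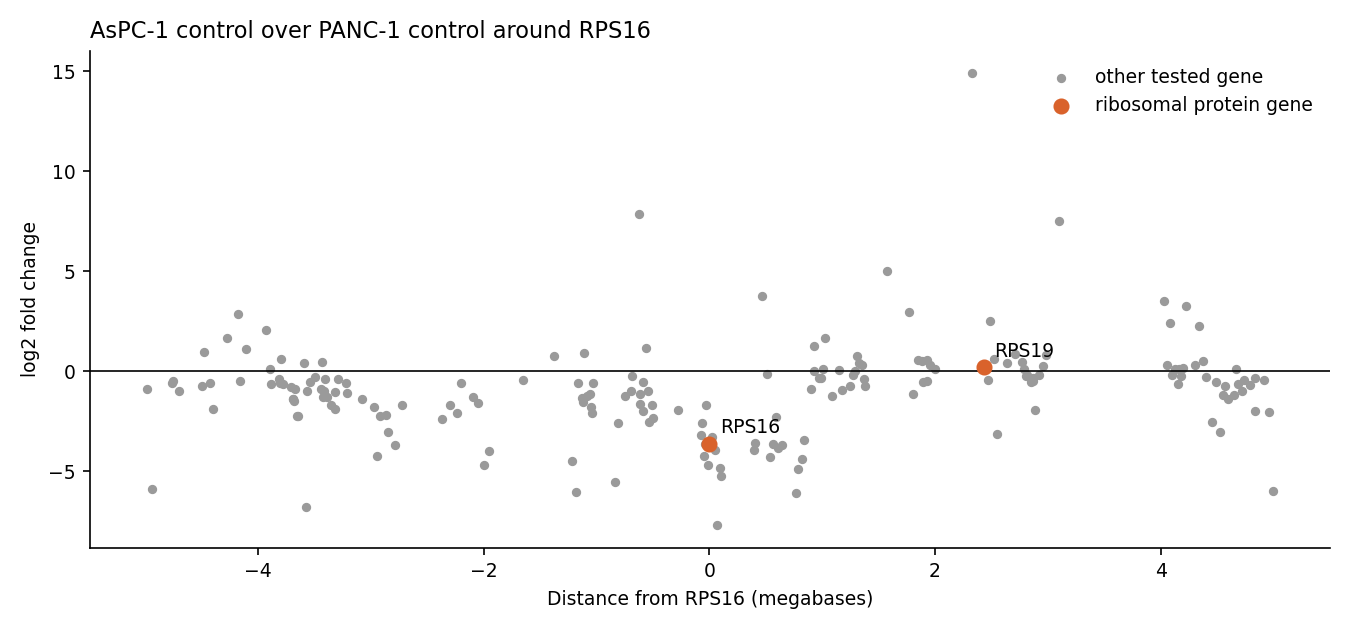
Log2 fold change of AsPC-1 control over PANC-1 control (edgeR) of tested genes within 5 megabases of RPS16, by distance of gene centres in megabases, among genes with at least 3 counts in each control group. The 16 nearest genes have a median of −3.60, close to RPS16 itself (−3.62), with wide scatter farther out, and RPS19 lies at 0.21.

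At the other end, 4 members were over 2-fold higher in AsPC-1 controls. RPL9, a stalk-base protein of the large subunit, was at 377 and 379 CPM in AsPC-1 controls, against 119, 114 and 114 CPM in PANC-1 controls (1.73 ± 0.06). RPL23 was at 379 and 340 CPM in AsPC-1 controls, against 165, 163 and 154 CPM in PANC-1 controls (1.19 ± 0.06). RPL7A was at 1166 and 1195 CPM in AsPC-1 controls, against 563, 524 and 534 CPM in PANC-1 controls (1.15 ± 0.05). The groups of all 3 were far apart. The RPL9 value is uncertain, since its pseudogene counts came to 34.1% of its own over all libraries. RPS27L, the p53-inducible copy of RPS27, was at 31.8 and 28.5 CPM in AsPC-1 controls, against 14.1, 16.3 and 15.5 CPM in PANC-1 controls (1.003 ± 0.10). RPL13 (0.99 ± 0.06) and RPS26 (0.99 ± 0.06) lay just under that size. RPS2 (0.85 ± 0.05), RPSA (0.73 ± 0.05), RPS6 (0.63 ± 0.05) and RPL5 (0.46 ± 0.05) were higher too.

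Lower in AsPC-1 controls after RPL39L and RPS16 were RPL38, known in mice for its part in translating Hox mRNAs, at 104 and 102 CPM in AsPC-1 controls, against 199, 168 and 169 CPM in PANC-1 controls (−0.77 ± 0.08). RPL22L1 differed by −0.74 ± 0.14, RPLP2 by −0.69 ± 0.06 and RPL17, a protein at the exit tunnel, by −0.68 ± 0.12. The RPL17 value is uncertain, since 35.3% of its exon bases are shared with other genes, among them the read-through gene RPL17-C18orf32. The stalk genes went different ways, since RPLP1 was lower (−0.40 ± 0.07) and RPLP0 higher (0.41 ± 0.05) in AsPC-1 controls. RPS29 (−0.65 ± 0.11) and RPL35A (−0.60 ± 0.06) were lower as well, as was RPS19BP1 (−0.40 ± 0.08). RPS27 was at 211 and 217 CPM in AsPC-1 controls, against 232, 214 and 202 CPM in PANC-1 controls, and RPS27A, FAU and RPL11 were not called either. RPL10, on the X chromosome, was called slightly higher (0.13 ± 0.05), but was at −0.04 with cyclic loess. Its call was also lost with upper-quartile factors, with no low-count filter or one of 5 CPM, and with the replicate block. It was lost without PANC-1 control replicate 2 or 3 as well, among other settings. Of its exon bases, 55.5% are shared with other genes, mostly DNASE1L1 on the other strand.

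**Figure D4:**
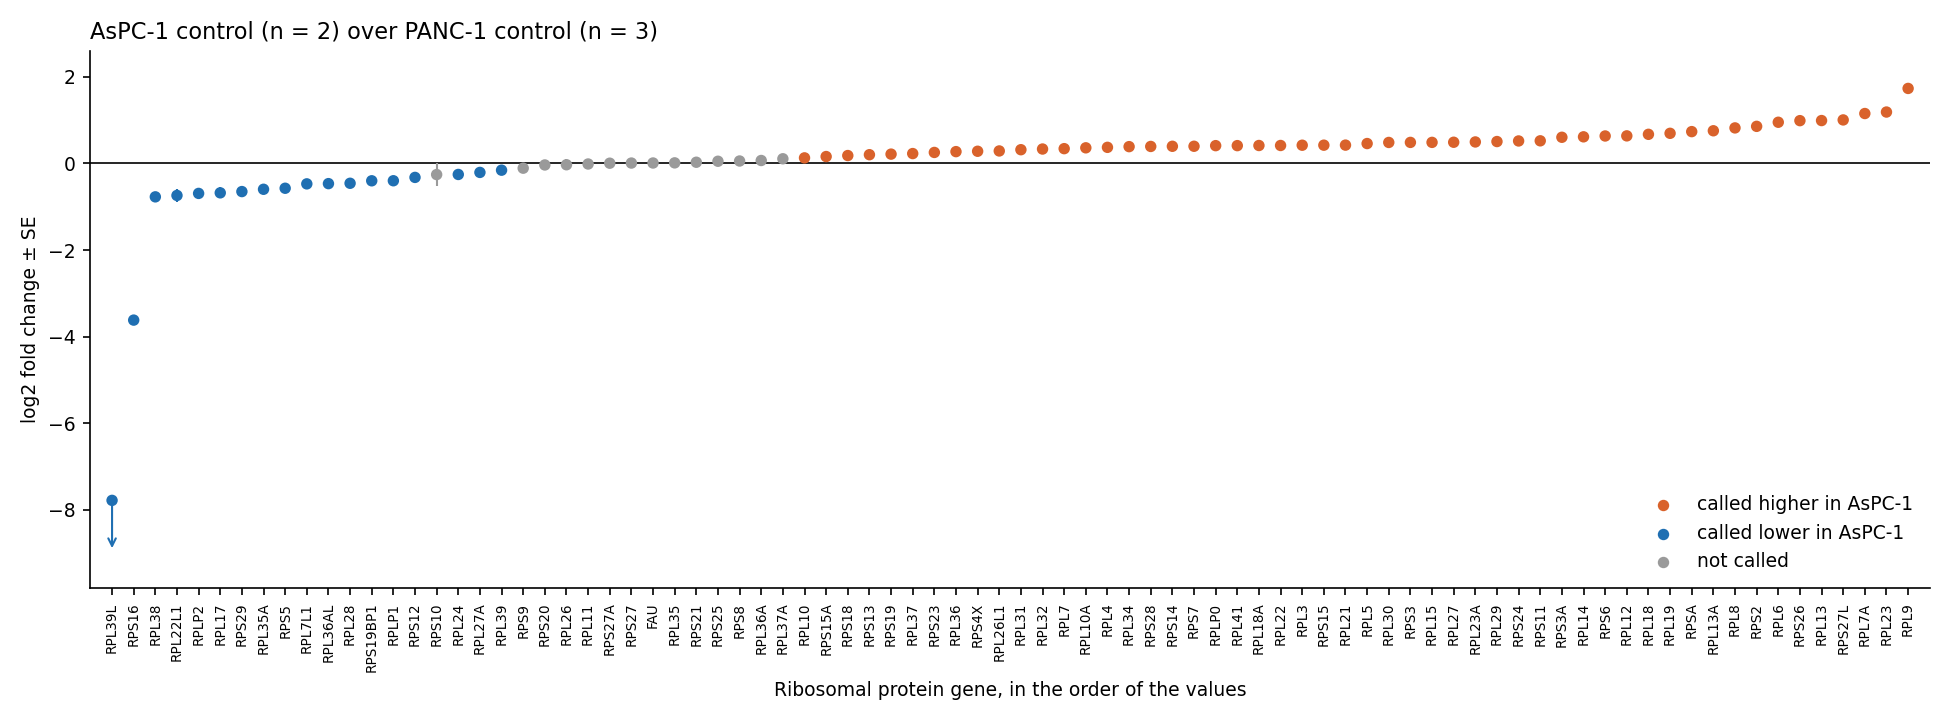
Log2 fold change of AsPC-1 control over PANC-1 control with its standard error (edgeR) for the ribosomal protein genes, in order; for most points the error bar is smaller than the symbol. RPL39L, with no count in AsPC-1, is drawn at its bound of −7.78 with an arrow, RPS16 lies at −3.62, and the other genes shown lie between −0.77 and 1.73.

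Some members are, by symbol, second copies or relatives of another member, and their balance differed between lines. The longest stretch of identical transcript sequence within these pairs was 11 to 67 bases, shorter than a read of 150 bases. RPL39L, a copy of the tunnel-lining protein RPL39 that is enriched in testis, had 0 counts in all 5 AsPC-1 libraries. It was at 26.5, 29.7 and 26.9 CPM in PANC-1 siRNA libraries, against 28.3, 25.7 and 26.7 CPM in PANC-1 controls. Against a floor of 3 counts over the group (0.122 CPM on the same scale), it was at least 220-fold lower in AsPC-1 controls than in PANC-1 controls. It made 13.2% of the counts of the RPL39 pair in PANC-1 siRNA libraries and 12.7% ± 0.306 in PANC-1 controls (SD, n = 3 each). RPL39 itself was at 167 and 161 CPM in AsPC-1 controls, against 200, 172 and 186 CPM in PANC-1 controls (−0.16 ± 0.07). That call was lost with DESeq2, with RLE factors, with the replicate block and without either AsPC-1 control. It was also lost without PANC-1 control replicate 1 or 3.

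RPL22L1 made 5.69% ± 1.12 of the RPL22 pair in AsPC-1 siRNA libraries (n = 3) and 6.41% ± 0.212 in AsPC-1 controls (n = 2), while in PANC-1 it made 11.9% ± 0.737 in siRNA libraries and 13.2% ± 1.26 in controls (n = 3 each). Each PANC-1 library was above each AsPC-1 library. RPS27L had the opposite order, at 11.3% ± 0.794 in AsPC-1 siRNA libraries and 12.3% ± 1.06 in AsPC-1 controls, and 7.40% ± 0.610 in PANC-1 siRNA libraries and 6.65% ± 0.786 in PANC-1 controls. RPL7L1 made 14.9% ± 0.839 of the RPL7 pair in AsPC-1 siRNA libraries and 18.7% ± 0.283 in AsPC-1 controls, without overlap, and 27.6% ± 1.35 in PANC-1 siRNA libraries and 28.8% ± 0.643 in PANC-1 controls, with overlap. These shares are of counts, not corrected for length. Pseudogene counts came to 17.5% of those of RPL22 and 19.3% of those of RPL7, so the shares of RPL22L1 and RPL7L1 are uncertain to that extent. Per kilobase RPL26L1 was at 26.4 ± 1.53 CPM in AsPC-1 controls and 22.02 ± 0.909 CPM in PANC-1 controls, where RPL26 was at 5.11 ± 0.191 and 5.29 ± 0.464 CPM. The RPL26 values are uncertain, since 14.3% of its exon bases are shared and pseudogene counts came to 26.1% of its own. RPL36AL made 81.2% to 86.2% of the counts of its pair with RPL36A in the group means. This share is uncertain too, since 8.4% of the exon bases of RPL36A are shared with the read-through gene RPL36A-HNRNPH2. RPL36AL rose in AsPC-1 siRNA libraries by 0.22 ± 0.06, a call lost without AsPC-1 control replicate 2.

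**Figure D5:**
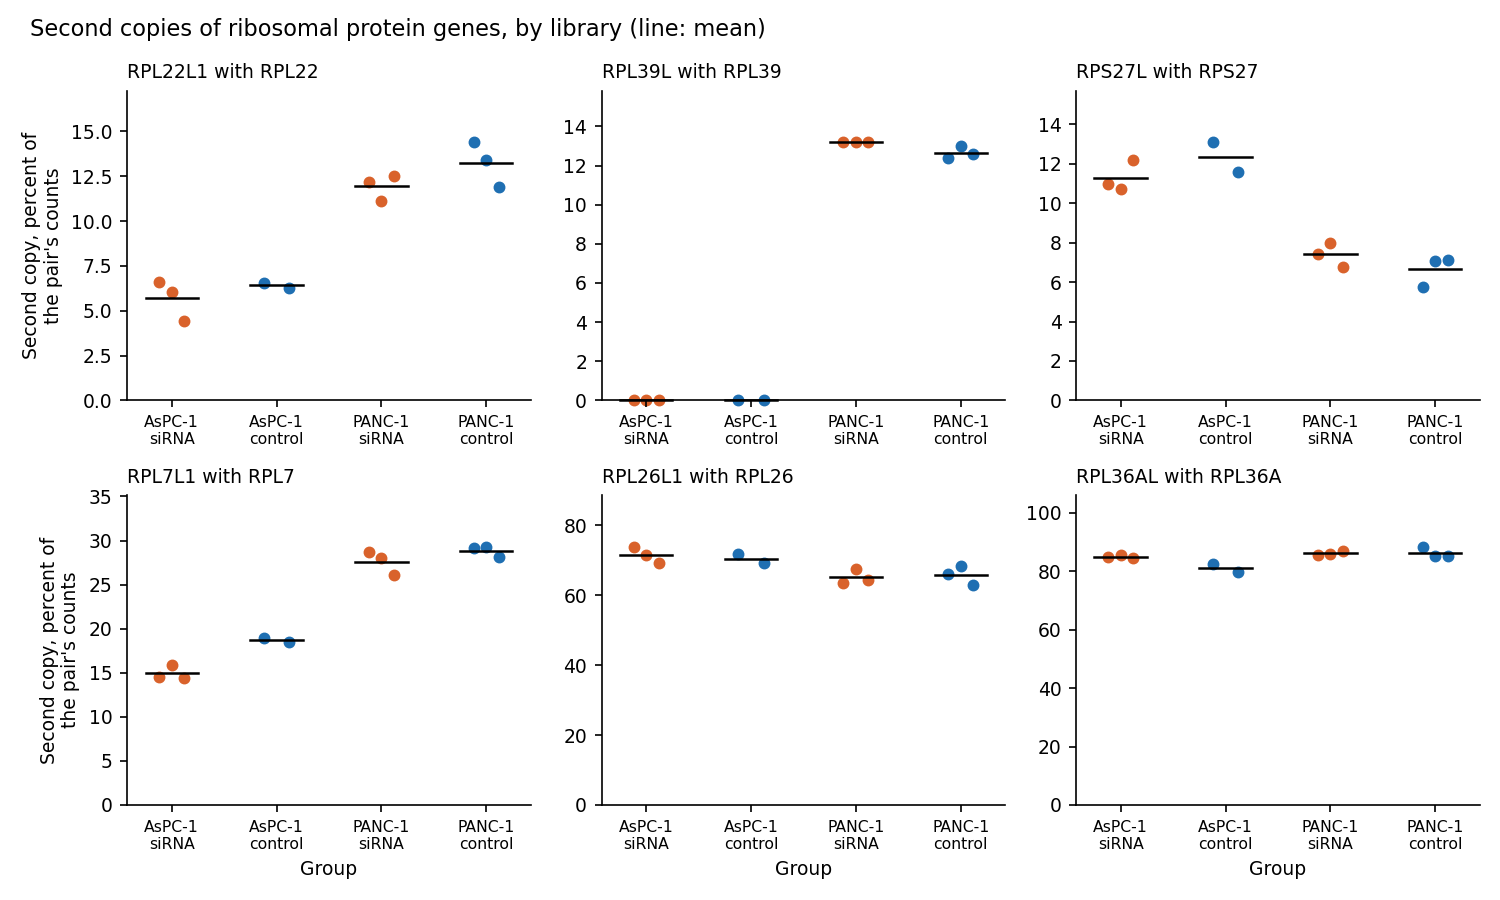
Share of the second copy in the counts of each gene pair (percent), by library, with siRNA libraries in orange, controls in blue and a line at each group mean. RPL39L is at 0 in AsPC-1 and near 13% in PANC-1, RPL22L1 and RPL7L1 are higher in PANC-1, and RPS27L is higher in AsPC-1.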

How the data were processed

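The deposited values are raw gene counts, whole numbers without normalization, in 1 table per library. HISAT2, HTSeq and the build hg19 are named per the submitters' processing notes; versions, counting mode and strand setting are not given in the sources used here. All 58735 identifiers match GENCODE 29, whose GRCh38 positions are used, so no coordinate comes from the deposited tables.

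Members and lists were chosen with earlier results of these data known. Each comparison had its own edgeR 4.0.16 fit (R 4.3.3) to the libraries it compares, after filterByExpr and with TMM factors. The two-sided quasi-likelihood test (glmQLFTest) was used, with Benjamini-Hochberg adjustment over all genes tested and a threshold of 0.05. The difference in response came from 1 fit over 4 groups. A standard error is the absolute log2 fold change over the square root of F. CPM values are scaled with TMM factors over all 11 libraries. No p-value was computed for the set as a whole. Some single genes are counted in the totals and are not reported here by name or drawn.

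Genes named were, per comparison, the 6 largest called rises and falls (where under 3 were called, the 3 largest values), second copies with their parents, genes listed by role, the 3 highest and lowest per length, and, of each other list, up to 3 called genes with the largest change. RPL12, RPL4, RPS3A, RPL19, MDM2, TPT1, LSG1 in AsPC-1, RPS16's neighbours and the promoter motifs were chosen after values were seen.

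Alternatives were RLE, upper-quartile and member-free TMM factors, limma 3.58.1 voom with cyclic loess, DESeq2 1.42.0, no low-count filter or 5 CPM, coding transcript length, 1 fit over all groups, a replicate block and leaving out each library. The fits were tested on simulated counts. Python 3.11.15 with pandas 2.3.3, scipy 1.17.1 and matplotlib 3.10.9 made descriptions and figures. No pair of replicates agreed within sampling noise, and floors cover counting error only.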

Additional observations from a re-analysis of the deposited data

Results flagged for a closer look

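For 13 members the siRNA response differed between the lines in the test of the difference itself (edgeR, adjusted p under 0.05), each with a higher log2 fold change in AsPC-1 than in PANC-1, where 2.28% of all genes tested were higher and 2.07% lower. The count was 1 with the replicate block and 2 or 3 without either AsPC-1 control, and of the 13 only RPLP0 was called in every fit that left out a library, with the block, with DESeq2 and with cyclic loess. The differences were 0.45 for RPS29, 0.36 for RPS27, 0.32 for RPS26, 0.31 for RPLP0, 0.28 for RPL35A, 0.28 for RPS27A, 0.25 for RPS14, 0.24 for RPL41, 0.24 for RPL19, 0.23 for RPL13, 0.23 for RPSA, 0.21 for RPS3A and 0.20 for RPL4. For RPS26, RPL35A and RPS14 the PANC-1 estimates were −0.17, −0.13 and −0.10, none of them called, beside AsPC-1 rises of 0.13 each.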

How the results depend on the processing

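Cyclic loess gave 31 rises, 2 falls and a median of 0.0795 in AsPC-1, 3 falls in PANC-1 and a control median of 0.17, where RPL10 turned to −0.043 (limma adjusted p = 0.395). Upper-quartile factors gave a control median of 0.20 and 6 differences in response, RLE factors 7, no low-count filter 20. One fit over all groups gave 43 rises, 1 fall and a median of 0.15 in AsPC-1 and, in PANC-1, 1 rise and 1 fall. Leaving out 1 library gave 38 to 60 rises and 1 to 2 falls in AsPC-1, 0 to 1 falls in PANC-1, 2 to 19 differences in response and a median difference of 0.12 to 0.16. It also moved RPS10 in AsPC-1 (−0.43 to 0.0526) across 0. The cause was not tested.

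Same-numbered libraries did not deviate together (correlations −0.333 to 0.01). Deviations were taken from the means of groups with few libraries, so these values depend on each other. They cannot decide whether the numbers pair the libraries. Between differently numbered PANC-1 siRNA and control libraries the correlations ran from −0.29 to 0.305. The highest were 0.305 for siRNA replicate 3 with control replicate 2 and 0.3 for siRNA replicate 2 with control replicate 1. A structure shared by these libraries was not tested, and the labels name none. With the replicate block the differences in response numbered 1, and the AsPC-1 rises 58.

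With pseudogene counts added, members took 3.82% in AsPC-1 siRNA libraries, 3.53% in AsPC-1 controls, 3.66% in PANC-1 siRNA libraries and 3.69% in PANC-1 controls. Leaving mitochondrial genes out of the total gave 4.25% and 3.93% in AsPC-1 siRNA and control libraries, and 3.77% and 3.82% in PANC-1 siRNA and control libraries.

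AsPC-1 has 2 control libraries, so leaving out 1 leaves a lone control assumed to vary like the siRNA libraries.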

Other observations

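Among 15 genes of the mTORC1 pathway to translation, 6 rose and 2 fell in AsPC-1 with MYEOV siRNA, and 3 rose and 1 fell in PANC-1. Of all genes tested, 16.6% rose and 16.3% fell in AsPC-1, and 4.16% rose and 4.92% fell in PANC-1. EIF4EBP2, a repressor of the cap-binding protein, rose by 1.02 ± 0.04 on the log2 scale in AsPC-1 and by 0.64 ± 0.05 in PANC-1. LARP1, which binds TOP mRNAs, rose by 0.71 ± 0.04 in AsPC-1 and by 0.32 ± 0.04 in PANC-1, and EIF4E, the cap-binding protein, fell by 0.32 and 0.22. The difference in response was called for LARP1 (0.41 ± 0.06) and EIF4EBP2 (0.39 ± 0.07). Of 13 genes of ribosome surveillance, 3 rose and 2 fell in AsPC-1. CDKN1A, a p53 target, fell by 1.01 in AsPC-1 and by 0.47 in PANC-1, and MDM2 was not called in either line. In AsPC-1 controls set against PANC-1 controls, 3 of the 25 chaperones and assembly factors were higher and 15 lower, with a median of −0.31, where 36.1% of all genes tested were higher and 40.3% lower, with a median of −0.06.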
